A study of Mus musculus with 3 samples.

Results

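A set of 10 genes for proteins of the nucleolus was examined in ribosome profiling of primary mouse cortical neurons: Nop56, Nop58, Fbl, Dkc1, Nhp2, Nop10, Gar1, Ncl, Npm1 and Nolc1. The 10 genes were chosen by name out of 20823 genes with both UTRs and a CDS in the tables, after the read ratio of Nop56 between 2 of the libraries had been seen in these data. The values of Nop56 in Harr against Chx are therefore a description of why the genes were chosen. Ribosome profiling reads the stretches of mRNA that ribosomes shield from nuclease. The WT library came from neurons that received no drug. The Chx library came from neurons given cycloheximide, which stops elongating ribosomes, for 2 min. The Harr library came from neurons given harringtonine, which traps ribosomes at initiation while those ahead finish, for 2 min, followed by a cycloheximide pulse. Each library pooled 3 dishes, and cycloheximide at 100 μg per ml was present during rinse and lysis of every library, WT included. The cultures of the study were made from embryonic cortex of CD-1 mice, and the labels give no genotype. There was 1 library per treatment, so no difference below has a replicate check, no p-value is given, and every interval covers counting error only.

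Small nucleolar RNAs guide the chemical modification and cleavage of ribosomal RNA, and each works inside a protein complex, the snoRNP. In box C/D snoRNPs, Nop56 and Nop58 form the scaffold and fibrillarin (Fbl) transfers the methyl group. In box H/ACA snoRNPs, dyskerin (Dkc1) makes pseudouridine and is bound by Nhp2, Nop10 and Gar1. Nucleolin (Ncl) and nucleophosmin (Npm1) are abundant nucleolar proteins that bind RNA and histones, and Nolc1 is a phosphorylated nucleolar protein that binds both kinds of snoRNP. Neurons have nucleoli and make ribosomes long after their last division.

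The header totals were 35722483 reads in the Chx library, 9754412 in Harr and 30219197 in WT, so that 3 counts equal 0.0840, 0.308 and 0.0993 reads per 1000000, and Harr gives the least precise values. All 8 neuronal markers were detected, with a summed CDS level of 4777 reads per 1000000 CDS reads in the Chx library, 4169 in Harr and 4965 in WT. The summed level of 4 astrocyte markers was 195, 78.8 and 213, that of 4 proliferation markers 66.1, 53.6 and 62.9, and those of 4 microglial, 4 oligodendrocyte and 4 fibroblast and vessel markers were between 1.44 and 13.4, with 2 of the oligodendrocyte markers at 0 in each library. The part of these other cells in the results below was not tested.

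The genes differ in how much coding sequence their first coding exon holds, and a read counts toward the region that holds its 5′ end. The footprint of a ribosome on the start codon begins upstream of that codon and is counted in the 5′ UTR. Below are the 12 nucleotides before the start codon and the first 15 of the CDS for 5 of the genes (GENCODE M21 transcripts, mm10, coding strand), with the coding bases that lie in the same exon as the start codon in capitals. The 5 genes are examples, and the first-segment reads of genes not shown, such as Nhp2, also enter the results below.
Nop56: ggagcaggcgccATGgttctgctgcac
Fbl: cagaacgcagtaATGAAGCCAGgtttc
Ncl: taatccgccaccATGGTGAAGCTCGCA
Npm1: cgcctccacctcATGGAAGACTCGATG
Nop10: ctgagggcagttATGTTTCTCCAATAT
In Nop56 the first coding exon ends with the start codon itself, 3 coding nucleotides in all. It ends after 10 coding nucleotides in Fbl, 16 in Dkc1 and 18 in Ncl, and after 45 in Nop58, 54 in Nop10, 58 in Npm1, 120 in Nolc1, 160 in Nhp2 and 247 in Gar1. The 5′ UTRs run from 44 nucleotides in Nop56 to 291 in Gar1, the CDSs from 195 in Nop10 to 2124 in Ncl, and the proteins from 64 residues in Nop10 to 707 in Ncl. A transcript start of C followed by 4 pyrimidines, the letters of a 5′ terminal oligopyrimidine tract, was found in Nolc1 alone of the 10, against 2.39% of 20808 transcripts with a 5′ UTR. These are the annotated starts of the longest transcripts, and the starts in use in these neurons were not measured.

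In the CDS, Nop10 and Ncl had the highest footprint levels of the 10 genes in all 3 libraries, with Npm1 level with Nop10 in Harr, and Dkc1 had the lowest. Levels are given as reads per kilobase of CDS and per 1000000 reads of the header total (RPKM), so that genes can be compared within a library. Fewer neurons and less RNA per neuron cannot be told apart in such bulk samples. In the box C/D group, Fbl was at 58.7 RPKM in Chx, 50.6 in Harr and 60.8 in WT. Nop56 was at 32.1, 12.5 and 25.4 RPKM, and Nop58, its partner in the complex, at 25.1, 16.9 and 24.0. Fbl thus stood above both scaffold proteins in every library, and the intervals of Nop56 and Nop58 overlapped in WT.

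Levels differed most within the H/ACA group. Nop10, the smallest subunit, was at 341 RPKM in Chx, 85.7 in Harr and 473 in WT, Nhp2 at 74.9, 32.0 and 83.1, and Gar1 at 13.9, 9.57 and 17.4. Dkc1, the enzyme of the complex, was at 5.38, 2.68 and 6.62 RPKM. Dkc1 lay below the median of the genes with at least 10 CDS reads in each library (9.50, 8.28 and 9.13 RPKM over 13118, 11243 and 12980 genes), and the other 9 genes lay above it. Ncl was at 203 RPKM in Chx, 265 in Harr and 259 in WT. Npm1 was at 66.7, 85.0 and 68.7 RPKM and Nolc1 at 27.1, 42.0 and 33.5, both highest in Harr.

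Neighbours in this order whose 95% counting intervals overlapped were Nolc1 and Nop58 in Chx, Nop10 and Npm1 as well as Nop56 and Gar1 in Harr, and Nop56 and Nop58 in WT. Together the 10 genes held 0.145% of all CDS reads of the Chx library (0.143 to 0.147%, Wilson 95% interval), 0.224% of those of Harr (0.220 to 0.229%) and 0.177% of those of WT (0.175 to 0.179%). Most of these reads were those of Ncl, which had 15422 CDS reads in the Chx library, 5496 in Harr and 16648 in WT.

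**Figure D1:**
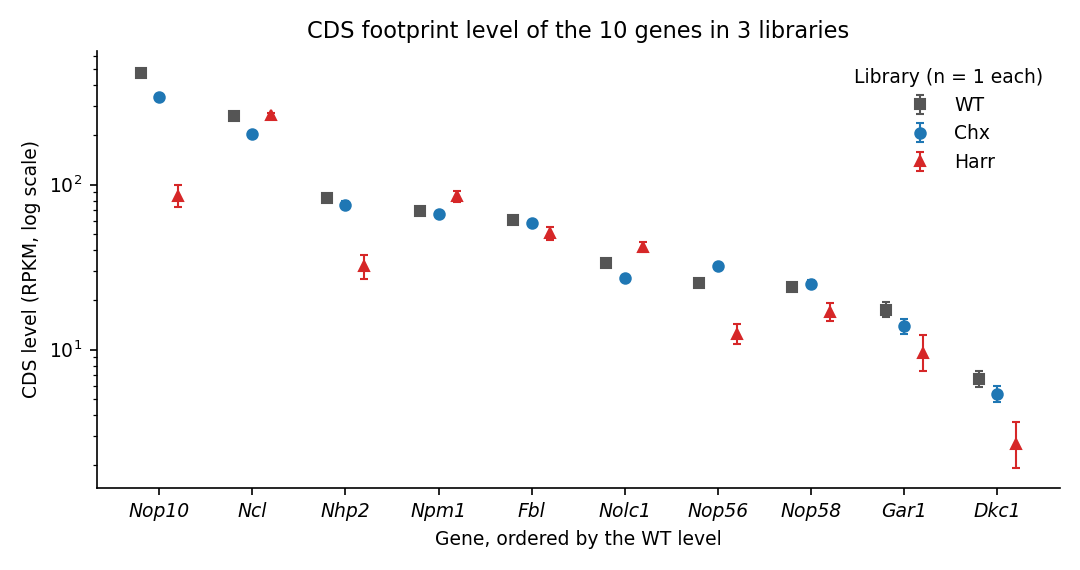
CDS footprint level (RPKM, log scale) of each of the 10 genes in the WT, Chx and Harr libraries, 1 library each, ordered by the WT level, with bars for the 95% counting interval where it is wider than the symbol. Nop10 is at 473 RPKM in WT and 85.7 in Harr, while Npm1 and Nolc1 have their highest point in Harr.

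In the 5′ UTR, Nop56 had 254 reads in Harr beside 1 in Chx and 1 in WT, the most extreme pattern among the 10 genes. Nop56 (chr2:130274430-130279313, plus strand) has a 5′ UTR of 1 exon, at chr2:130274430-130274473. Its CDS reads were 1998 in Chx, 212 in Harr and 1337 in WT, so that Harr was the only library with more reads in the 44-nucleotide 5′ UTR than in the CDS of 1743 nucleotides. The odds of a read lying in the 5′ UTR rather than the CDS were 2383 times higher in Harr than in Chx (exact 95% interval 419 to 94960.1) and 1594 times higher than in WT (280.2 to 63559.9). Of 3447 genes with at least 1000 CDS reads in both Chx and WT, 60 had at most 1 5′ UTR read in both, and of those 60 only Nop56 had 100 or more in Harr. This rule was written after the values of Nop56 had been seen.

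Genes whose first coding exon is as short had fewer 5′ UTR reads than others at the median, and some had as few as Nop56 in Chx. For the 215 genes with 1 to 3 coding nucleotides in that exon, the median number of 5′ UTR reads per CDS read was 0.0391 (Chx), 0.248 (Harr) and 0.0176 (WT). For the 8683 genes with 61 or more, these medians were 0.0921, 0.508 and 0.0530 in the same order. The log2 odds ratio of Harr against Chx had a median of 2.63 in the short class and 2.44 in the long class. Against WT these medians were 3.33 and 3.21. Nop56 had 1.20 5′ UTR reads per CDS read in Harr, against 0.000501 in Chx and 0.000748 in WT. Among genes with at least 1000 CDS reads in Chx, 10 of 91 in the class of Nop56 and 64 of 3083 in the long class had at most 1 5′ UTR read there.

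The other box C/D genes showed the same direction at a smaller size. Nop58 (chr1:59685009-59719044, plus strand) had 121 5′ UTR reads and 1446 CDS reads in the Chx library, 207 and 265 in Harr, and 56 and 1170 in WT. The 5′ UTR:CDS log2 odds ratio, computed with 0.5 added to each count, was 3.22 ± 0.19 (counting SE) for Harr against Chx and 4.02 ± 0.24 for Harr against WT. Fbl (chr7:28169710-28179269, plus strand) had 65 and 2063 reads in the Chx library, 95 and 486 in Harr, and 14 and 1807 in WT. The odds ratio was 2.63 ± 0.24 (log2) against Chx and 4.61 ± 0.41 against WT. WT thus held the fewest 5′ UTR reads per CDS read for both genes.

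Among the H/ACA genes, Nop10 (chr2:112261926-112263269, plus strand) had more 5′ UTR than CDS reads in Harr. Its reads were 206 in the 5′ UTR and 2372 in the CDS in Chx, 410 and 163 in Harr, and 272 and 2787 in WT. Against Chx the log2 odds ratio in Harr was 4.85 ± 0.17, higher than in 97.7% of the 10723 genes measured, and against WT 4.68 ± 0.16, higher than in 87.3% of 10314 genes. Dkc1 (chrX:75095854-75109777, plus strand) had 20 and 294 reads in the Chx library, 28 and 40 in Harr, and 20 and 306 in WT, so that its values rest on the fewest reads of the 10 genes. Nhp2 (chr11:51619735-51623714, plus strand) had 78 and 1236 reads in the Chx library, 77 and 144 in Harr, and 72 and 1160 in WT. Gar1 (chr3:129824912-129831396, minus strand), whose 5′ UTR spans 2 exons, had 39 and 345 reads in the Chx library, 52 and 65 in Harr, and 13 and 367 in WT. For Harr against Chx the log2 odds ratio was 3.34 ± 0.48 in Dkc1, 3.08 ± 0.26 in Nhp2 and 2.81 ± 0.36 in Gar1, and for Harr against WT it was 3.40 ± 0.48, 3.10 ± 0.27 and 4.45 ± 0.48. Without the first coding segment, Nhp2 was at 4.45 against Chx and 4.47 against WT.

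Ncl, Npm1 and Nolc1 had the smallest differences for Harr against Chx when all coding segments were counted, which for Npm1 rested on its first coding segment. Ncl (chr1:86344719-86359400, minus strand) had 1057 5′ UTR reads in the Chx library, 1534 in Harr and 499 in WT, Npm1 (chr11:33152287-33163206, minus strand) 603, 671 and 358, and Nolc1 (chr19:46075863-46085528, plus strand) 298, 222 and 118. Their CDS reads, beside those of Ncl above, were 2094, 729 and 1825 in Npm1 and 2043, 864 and 2133 in Nolc1. For Harr against Chx the log2 odds ratio was 2.03 ± 0.06 in Ncl, 1.68 ± 0.10 in Npm1 and 0.82 ± 0.14 in Nolc1, and for Harr against WT it was 3.22 ± 0.08, 2.23 ± 0.11 and 2.21 ± 0.17. Without the first coding segment, Npm1 was at 4.25 against Chx, above 6 of the other 9 genes, and at 5.10 against WT, while Ncl was at 2.01 and Nolc1 at 0.76 against Chx. With all segments counted, the intervals of Npm1 and Nolc1 overlapped for Harr against WT and did not for Harr against Chx.

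A gene was counted as past the fold when it had at least 10 reads in each region over the pair of libraries, an odds ratio of at least 2-fold and a 95% counting interval that left out no difference. Nop56 prompted the choice of the genes and passed the minimum only through Harr. Of the other 9 genes, 8 (all but Nolc1) were higher in Harr than in Chx, beside 89.4% of all genes measured, and 9 of 9 were higher in Harr than in WT, beside 94.3%. The median log2 odds ratio was 2.94 over the 10 genes and 2.46 over all genes for Harr against Chx, and 3.71 and 3.23 for Harr against WT. Without Nop56 the median gene was Gar1 (2.81) against Chx and Dkc1 (3.40) against WT. These shares are near those of all genes, and both comparisons use the same Harr library. As a share of the 10 genes' own reads, the 5′ UTR held 7.80% in Chx, 28.9% in Harr and 4.57% in WT, below the 8.71, 33.5 and 6.14% over all genes.

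**Figure D2:**
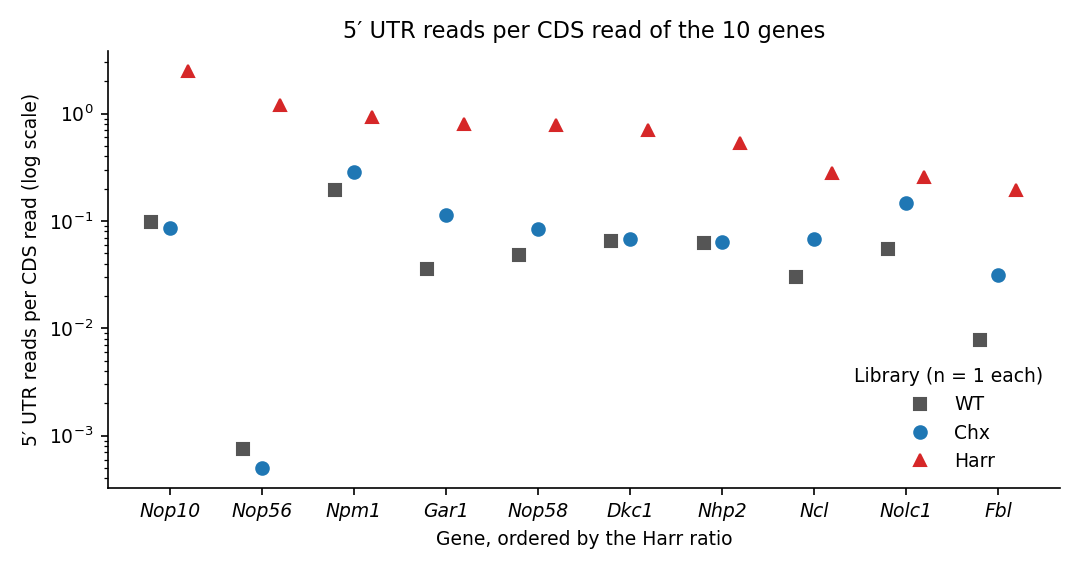
5′ UTR reads per CDS read (log scale) of each of the 10 genes in WT, Chx and Harr, 1 library each, ordered by the Harr ratio. The Harr point is the highest for every gene, and Nop56 in Chx (0.000501) and WT (0.000748) lies below all other points.

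Between Chx and WT, 4 of the 9 genes with enough reads had more 5′ UTR reads per CDS read in Chx past the fold, beside 30.3% of all genes, and 0 of 9 had fewer, beside 1.09%. Nop56, with 1 read in each, was the gene not measured. The 4 genes were Fbl (log2 odds ratio 1.98 ± 0.42), Gar1 (1.64 ± 0.47), Nolc1 (1.40 ± 0.16) and Ncl (1.19 ± 0.08). Nop58 (0.80 ± 0.24) and Npm1 (0.55 ± 0.11) were higher by less than 2-fold. Dkc1 (0.06 ± 0.47), Nhp2 (0.02 ± 0.24) and Nop10 (−0.17 ± 0.14) had intervals that took in 0, so that 3 of the 4 H/ACA genes showed no difference detectable at this depth. The median was 0.80 over the 9 genes and 0.67 over all genes.

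The CDS level in Harr followed CDS length across all genes, and the 10 genes are therefore set beside genes of like length. Each level is the number of CDS reads per 1000000 CDS reads of the library, and differences are log2 ratios. Nolc1 had the highest ratio of Harr to Chx of the 10 genes, 1.18 ± 0.06, followed by Ncl (0.93 ± 0.02) and Npm1 (0.90 ± 0.06). For the 2649 genes with a CDS of 2000 to 4000 nucleotides, the class of Ncl and Nolc1, the median was 0.36 and the quartiles 0.10 and 0.65, so that both lay above the upper quartile. Npm1 belongs to the 3144 genes of 600 to 1200 nucleotides, whose median was −0.54 and whose quartiles were −1.01 and −0.07, and it was higher than 96.9% of them. Fbl (0.34 ± 0.07) and Gar1 (0.02 ± 0.19), in the same class, were also above its upper quartile, with an interval that reached below it in Gar1. Scaling by the header totals, as in RPKM, moved the median of all genes to −0.60 for Harr against Chx and −0.51 for Harr against WT, and turned Fbl to −0.21 and −0.26.

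Nop10 had the lowest ratio, −1.44 ± 0.12, below the lower quartile (−1.25) of the 1670 genes under 600 nucleotides, with an interval (−1.67 to −1.21) that reached above it. Nhp2, at −0.68 ± 0.13, lay at the median of that class (−0.68). In the class of 1200 to 2000 nucleotides (3160 genes, median −0.07, quartiles −0.43 and 0.29), Nop58 was at −0.02 ± 0.10 and Nop56 at −0.81 ± 0.10, below the lower quartile, with Dkc1 between them at −0.44 ± 0.24. The reads of Nop56 in this ratio are among those that led to the choice of the genes, so its value is a description.

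Past the 2-fold rule for Harr against Chx were 1 of 10 genes higher (Nolc1), beside 4.63% of 11459 genes, and 1 of 10 lower (Nop10), beside 13.7%. With header totals as the scale Nolc1 was at 0.63, and 0 were higher, beside 0.559% of all genes, and 3 lower, beside 31.2%. Without the first coding segment 1 was higher and 3 were lower, beside 6.53% and 20.8% of the 10188 genes that could be measured so. For Harr against WT, 0 of 10 were higher, beside 5.3%, and 1 of 10 was lower (Nop10, −1.95 ± 0.12), beside 14.3%. With header totals 0 were higher and 4 lower against WT, beside 0.681% and 29% of all genes, and without the first coding segment 0 were higher and 3 lower, beside 6.94% and 22%. Without coding segments that share words with other genes, which leaves 7 of the 10 genes, 1 (Ncl) was higher and 0 were lower against WT, and the share over all genes was not computed. The other ratios of Harr to WT were 0.84 ± 0.06 in Nolc1, 0.82 ± 0.06 in Npm1, 0.54 ± 0.02 in Ncl, 0.25 ± 0.07 in Fbl, 0.00 ± 0.10 in Nop58, −0.35 ± 0.19 in Gar1, −0.51 ± 0.11 in Nop56, −0.78 ± 0.24 in Dkc1 and −0.86 ± 0.13 in Nhp2. The class of Ncl and Nolc1 had a median of 0.44 and an upper quartile of 0.70 against WT, so that Ncl lay inside the quartiles there. Ncl was at 1.05 with coding segments that share words with other genes left out, and class quartiles were not computed in that setting. The median over the 10 genes was −0.00 for Harr against Chx and −0.17 for Harr against WT, and over all genes −0.05 and 0.00.

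**Figure D3:**
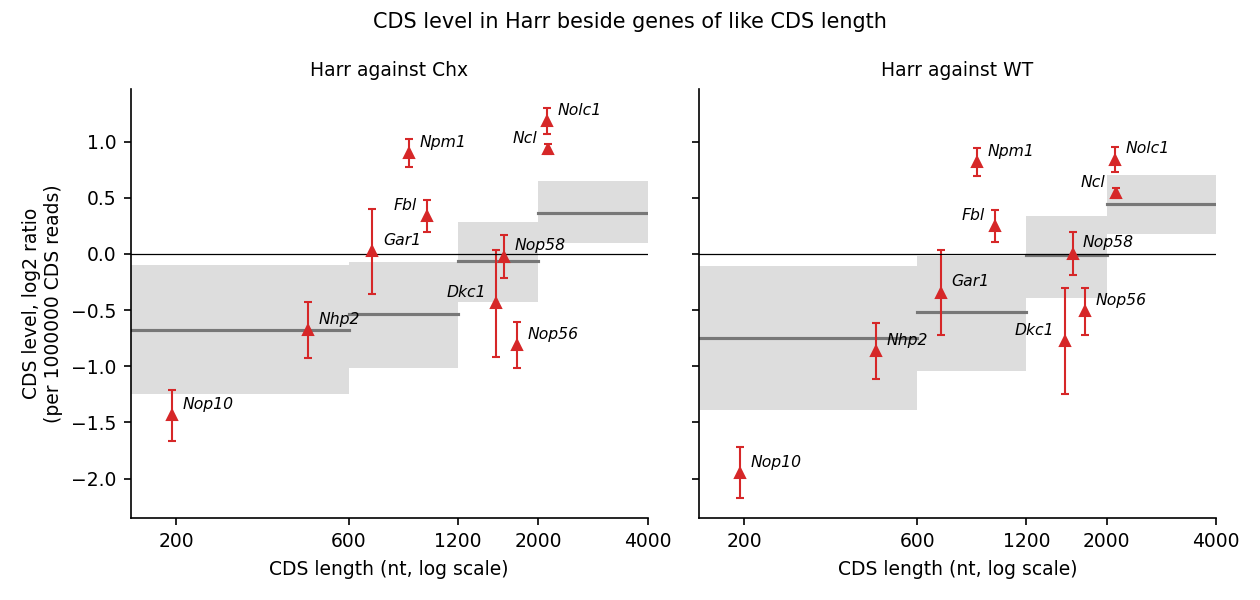
CDS level in Harr against Chx (left) and against WT (right), as a log2 ratio of reads per 1000000 CDS reads, against CDS length (nt, log scale), with 1 triangle per gene and bars for the 95% counting interval. Grey bands run between the quartiles of all genes in a class of CDS length and the grey line is the class median, for example −0.68 under 600 nucleotides and 0.36 from 2000 to 4000 on the left. Npm1 stands above its class in both panels, Nop56 below it.

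The level of Npm1 in Harr came almost wholly from its first coding segment. The 58 coding nucleotides that share an exon with the start codon held 668 of the 729 CDS reads of Harr, beside 1044 of 2094 for Chx and 697 of 1825 for WT, which is 91.6, 49.9 and 38.2%. The other 10 coding segments together had 61 reads (Harr), 1050 (Chx) and 1128 (WT). Without the first segment the log2 ratio of Harr to Chx turned from 0.90 to −1.67 and that of Harr to WT from 0.82 to −2.05. In Nhp2 the first segment held 72.2% of the Harr CDS reads, beside 27.4% for Chx and 27.8% for WT, and the log2 ratio of Harr to Chx without it was −2.05. By contrast, the first segment of Fbl, at 10 nucleotides, had 0 reads in all 3 libraries, and that of Dkc1 had 0, 1 and 0.

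CDS levels in Chx and WT were closer to each other. Nop10 was lower in Chx by a log2 ratio of −0.51 ± 0.04, Ncl by −0.39 ± 0.02, Gar1 by −0.37 ± 0.11, Nolc1 by −0.34 ± 0.04 and Dkc1 by −0.34 ± 0.12. Nhp2 was at −0.19 ± 0.06, Fbl at −0.09 ± 0.05, Npm1 at −0.08 ± 0.05 and Nop58 at 0.03 ± 0.06. Nop56 alone was higher in Chx with an interval above 0, at 0.30 ± 0.05. Its second coding segment, which follows the start codon's exon, had 408 reads in the Chx library, 47 in Harr and 153 in WT, a Chx:WT ratio of 2.26 per header read. Each of the 10 genes was within 2-fold, with 0 of 10 past the fold in either direction, beside 0.201% of all genes higher and 0.122% lower. The median was −0.26 over the 10 genes and 0.03 over all genes.

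Along the CDS, the ratio of Harr to Chx was low in early segments and above 1 in the last in Ncl, Nolc1 and Nop58, while the first segment was higher than the segment directly after it. Here ratios are per read of the header totals, and positions are known only to the exon segment. In Ncl the ratio was 0.981 in the first coding segment, 0.233 in the third (262 reads in Harr and 4118 in Chx) and 3.74 in the last (416 and 407). In Nolc1 it was 1.17 in the first segment, 0.270 in the fifth (22 and 298 reads) and 5.20 in the last (152 and 107). In Nop58 it was 1.97 in the first, 0.0426 in the second (1 and 86 reads) and 2.88 in the last (11 and 14), and its 12th segment had 0 reads in Harr and 22 in Chx. The second segment of Nop58 thus had almost no Harr reads, while its first, with the start codon, had 50 in Harr and 93 in Chx.

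To put a single value on this, reads in the later part of the CDS were set against those in the earlier part, with segments placed by their midpoint and the first coding segment left out. For Harr against Chx the log2 odds ratio was 2.36 ± 0.15 in Nolc1, 2.16 ± 0.06 in Ncl and 2.12 ± 0.26 in Nop58, above the medians of their length classes (1.30 for Ncl and Nolc1, 1.38 for Nop58). Npm1 was at 1.57 ± 0.38, above its class median of 0.60, on 61 Harr reads. Dkc1 (1.40 ± 0.50), Nop56 (1.27 ± 0.23) and Fbl (0.62 ± 0.15) lay close to their class medians of 1.38, 1.38 and 0.60. Gar1 was at 0.99 ± 0.52, with an interval that took in 0, and Nhp2 at −1.71 ± 1.00 on 2 early reads in Harr and 17 in Chx. Nop10 has 2 coding segments and no value. Segments that share words with other genes were kept here, and no position value is given without them. Segments 9 to 12 of Nop56, in the later CDS, share 92.7 to 100% of their words with pseudogenes. Every coding segment of Fbl and Npm1 shares words with other genes.

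By the 2-fold rule 6 of 9 genes were higher in the later CDS for Harr against Chx, beside 41% of all genes. For Harr against WT it was 6 of 9, beside 42.2%. Both counts include Nop56, whose reads prompted the choice of the genes. The shares over all genes take in every CDS length. For Harr against Chx the median was −0.08 in the length class of Nhp2 and 1.38 in that of Nop56 and Dkc1. Nop56 (1.27) and Dkc1 (1.40), both among the 6, lay close to the latter, and no share by length class is given. The counts therefore do not set these genes apart from genes of like length. Against WT the values were 2.24 ± 0.06 in Ncl, 2.18 ± 0.50 in Dkc1 (class median 1.41), 2.10 ± 0.27 in Nop58 and 1.70 ± 0.15 in Nolc1. Npm1 was at 1.66 ± 0.38, Nop56 at 1.37 ± 0.24 and Fbl at 0.93 ± 0.15. Gar1, at 0.58 ± 0.52, and Nhp2, at −1.37 ± 1.00, had intervals that took in 0. Between Chx and WT the same odds ratio was −0.66 ± 0.10 in Nolc1 and 0.78 ± 0.26 in Dkc1, and in the other 7 genes between −0.40 and 0.34. The last coding segment of Nolc1 held 107 Chx reads and 230 WT reads, and that of Ncl 407 and 761.

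**Figure D4:**
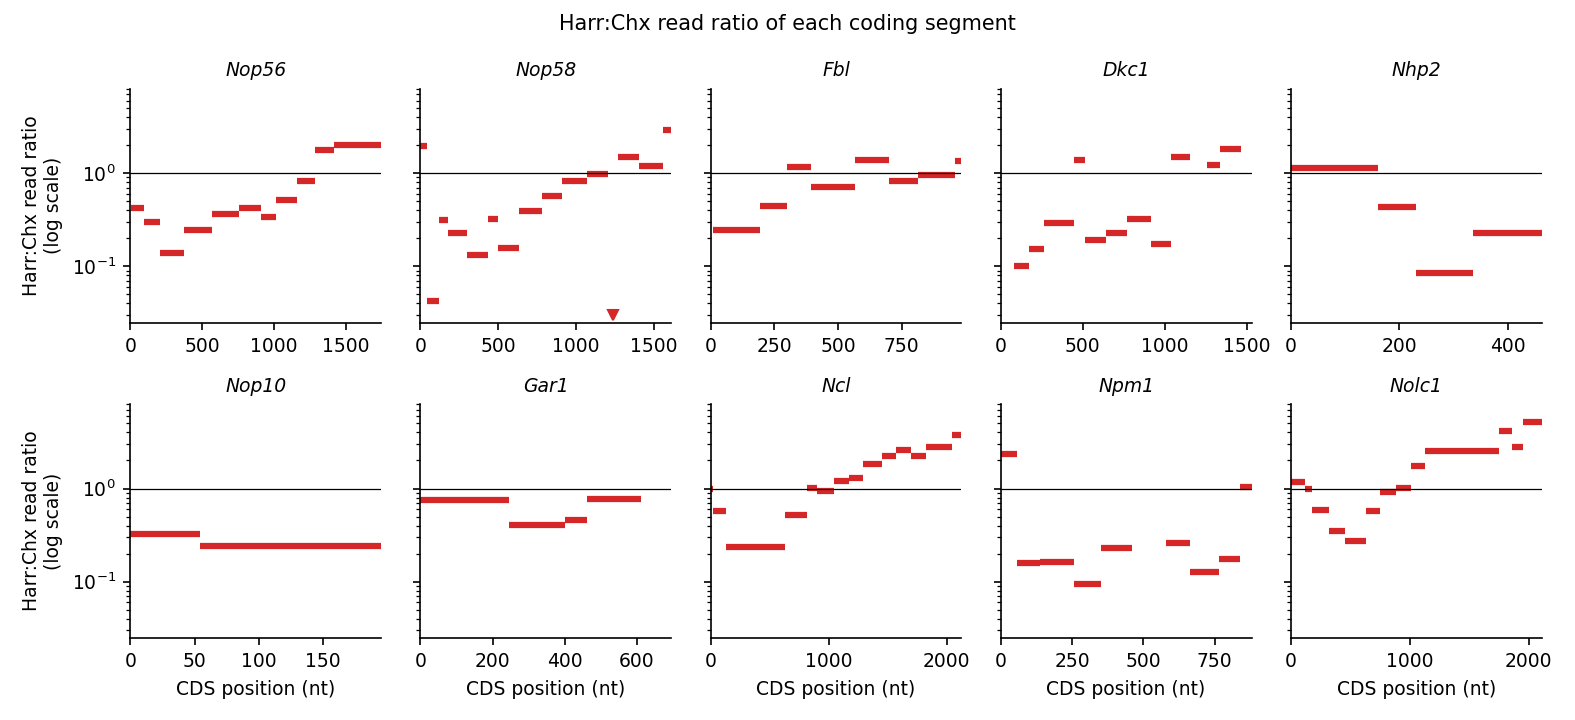
Ratio of Harr to Chx reads (per header read, log scale) for each coding segment with at least 10 reads in the pair, drawn over its position in the CDS (nt from the start codon), 1 panel per gene. A downward triangle marks a segment with 0 Harr reads, and the thin line marks a ratio of 1. The ratio is 0.981 in the first segment of Ncl, 0.233 in the third and 3.74 in the last, and 1.17, 0.270 (in the fifth) and 5.20 in Nolc1, while Npm1 is at 2.34 in its first segment, between 0.0953 and 0.262 in the 7 bars that follow and at 1.05 in its last.

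In the 3′ UTR, read numbers were low, and Harr held most of the reads of Ncl, Npm1 and Nolc1 although it was the shallowest library. Ncl had 11 3′ UTR reads in the Chx library, 91 in Harr and 27 in WT, Npm1 3, 64 and 30, and Nolc1 8, 33 and 20. Fbl had 0, 14 and 2 reads and Nop58 3, 11 and 7. Nop10 had 56, 41 and 64, Nhp2 14, 8 and 9, Gar1 3, 4 and 7, Dkc1 0, 1 and 4, and Nop56 0, 2 and 0. The odds of a 3′ UTR read against a CDS read were at least 19.8-fold higher in Harr than in Chx for Fbl, computed against a floor of 3 counts in Chx, and the exact 95% lower limit, which also takes in the counting error of the 14 Harr reads, was 14.0-fold. For Npm1 they were 61.2 times higher (exact 95% interval 19.9 to 306) and for Nop58 20.0 times (5.22 to 112), with 3 reads each in Chx. Part of the 3′ UTR of Nop58 overlaps a CDS.

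For Harr against Chx, 7 genes passed the minimum of 10 reads, 4 of them (Nop58, Fbl, Npm1 and Nolc1) only through Harr, and 7 of 7 were past the fold, beside 86.5% of all genes. Against WT it was 8 of 8, beside 79.8%, with Nop58 and Fbl past the minimum only through Harr. Neither count supports a difference, since genes that pass through the library where they are high had to differ. For Chx against WT, 3 of 7 were lower past the fold (Npm1, −3.32 ± 0.82, Nolc1, −1.21 ± 0.59, and Ncl, −1.15 ± 0.51), beside 38.9%, and of these Npm1 and Nolc1 passed the minimum only through WT, where they were high. The 3′ UTR held 0.307% of the 10 genes' Chx reads, 2.19% of their Harr reads and 0.546% of their WT reads, against 1.71, 4.10 and 2.18% over all genes.

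Several of the genes have processed pseudogenes, copies of the spliced mRNA elsewhere in the genome, and reads from the shared stretches cannot be placed with certainty. Of the 25-nucleotide words of the transcript, 78.2% in Fbl, 47.5% in Npm1 and 38.4% in Nop56 also occur in transcripts of other annotated genes. The share was 11.6% in Dkc1 and between 2.00 and 7.98% in the other 6 genes, but single coding segments shared more, up to 34.8% in Ncl, 31.7% in Nhp2 and 11.1 and 44.0% in the 2 segments of Nop10. With every coding segment that shares 10% or more left out, the CDS log2 ratio of Harr to Chx was 1.41 in Ncl, then past the fold, and −1.10 in Nop56, also past it, and Fbl, Npm1 and Nop10 had no segment left. In Dkc1 this ratio was then 0.02, beside −0.44 with all segments. Fbl shares 72.6% of its words with 1 pseudogene, Gm5812, and all of its coding segments except the last share 76.0% or more, so that the values of Fbl as a whole are uncertain, as are the CDS values of Npm1 and Nop10. Npm1 shares words with 18 pseudogenes. Its 5′ UTR shares none and its first coding segment 69.0%.

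In Nop56 the sharing lies toward the end of the gene. Its 5′ UTR and first 7 coding segments share no words, whereas segments 9 to 12 share 92.7 to 100% with pseudogenes. In Chx and WT the last 4 segments had the lowest read density of the gene apart from the 3-nucleotide first segment, which was not so in Harr, where segment 11 had 17.0 reads per 100 nucleotides and segments 4 to 8 had 7.41 to 13.3. Segments 9 to 12 had 99, 22, 47 and 24 reads in the Chx library, 14, 5, 23 and 13 in Harr and 68, 12, 27 and 16 in WT, against 140 to 408 reads in segments 2 to 8 in Chx. The 5′ UTRs of Nop58, Nhp2, Nop10, Gar1, Ncl and Nolc1, and the CDS of Nop58, share no words with other annotated genes.

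Of the 10 genes, 4 carry snoRNA genes in their introns, 13 in all. Nop56 holds 5 (Snord57, Snord110, Gm23187, Gm23650 and Gm24451), Nop58 4 (Snord11, Snord70, Gm26287 and Gm26293), Ncl 3 (Snord82, Snora75 and Gm24148) and Dkc1 1 (Gm25520). Reads at these loci were few, from 0 to 25 per library. Gm23650 had 25 reads in the Chx library, 13 in Harr and 10 in WT, Gm24451 16, 5 and 3, Snora75 15, 4 and 15, and Gm24148 12, 3 and 9. The 6 loci with 0 reads in all 3 libraries included Snord70 and Snord82.

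Genes that work with these proteins were read in lists picked by function. Of 12 genes for snoRNP partners and assembly factors, 11 were past the fold for the 5′ UTR:CDS odds ratio, Harr against Chx, beside 89.4% of all genes, with a median of 2.57 beside 2.46 over all genes. Against WT it was 9 of 11, beside 94.3%. Shq1, the chaperone of dyskerin, was highest at 3.79 ± 0.44, followed by the ATPase Ruvbl1 (3.64 ± 0.27). The lowest were Rrp9, a protein of the U3 snoRNP (2.16 ± 0.50), and Naf1 (0.45 ± 0.32), which holds the place of Gar1 during H/ACA assembly. Naf1 had 62 5′ UTR and 798 CDS reads in the Chx library, 35 and 331 in Harr, and 46 and 685 in WT. For the CDS level, Naf1 was highest (1.15 ± 0.09) and the only one past the fold, 1 of 12 higher and 0 lower, beside 4.63 and 13.7% of all genes. It was followed by Rpap3 (0.95 ± 0.09), and Rrp9 (−0.81 ± 0.20) and Pih1d1 (−0.94 ± 0.15), like Rpap3 part of the R2TP assembly complex, were lowest.

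Of 26 ribosome biogenesis genes, 24 had enough 5′ UTR reads and 24 of these were past the fold for Harr against Chx, beside 89.4% of all genes, with a median of 2.59 beside 2.46. Utp20, with 6 5′ UTR reads in Chx and 15 in Harr, passed the minimum only through Harr. Nip7 (4.63 ± 0.27) and Nop16 (3.28 ± 0.18) were highest, and Noc2l (1.45 ± 0.23) and the RNA helicase Ddx10 (1.41 ± 0.31) were lowest. For the CDS level, Nop9 (1.02 ± 0.12) and Nop53 (0.71 ± 0.07) were highest and Imp4 (−0.74 ± 0.19) and Nip7 (−1.55 ± 0.21) lowest, with 1 of 26 past the fold in each direction, beside 4.63% of all genes higher and 13.7% lower, and a median of 0.29 beside −0.05 over all genes. The list was not set beside genes of like CDS length, which the CDS level in Harr followed. Nip7, with a CDS of 543 nucleotides, thus had a high 5′ UTR:CDS value and a low CDS level, as Nop10 did. Both measures use the same CDS counts, so that fewer CDS reads in Harr raise the first as they lower the second.

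Of the list of RNA polymerase I and nucleolar scaffold genes, 8 of 9 were found, and 6 of 6 with enough 5′ UTR reads were past the fold, beside 89.4% of all genes, with a median of 2.04 beside 2.46. The polymerase subunits Polr1e (2.85 ± 0.41) and Polr1a (2.84 ± 0.27) were highest and Polr1b (1.88 ± 0.61) and Rrn3 (1.62 ± 0.19), an initiation factor of this polymerase, lowest. For the CDS level, Tcof1 (1.20 ± 0.11), a nucleolar protein related to Nolc1, and Mki67 (1.11 ± 0.15) were past the fold and higher, Polr1e was at −0.07 ± 0.20, and Polr1c (−1.91 ± 0.24) was past it and lower. That is 2 of 8 higher and 1 of 8 lower, beside 4.63 and 13.7% of all genes. Tcof1 has a CDS of 4071 nucleotides and Mki67 of 9534. The CDS level in Harr followed CDS length, and none of these lists was set beside genes of like length.

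The 4 relatives of the genes by family were read for comparison. Fbll1, a fibrillarin-like gene, had 1569 CDS reads in the Chx library, 251 in Harr and 1420 in WT, or 46.5, 27.2 and 49.7 RPKM, a level below that of Fbl in each library. Prpf31, a splicing factor with the Nop domain of Nop56 and Nop58, had 1334, 171 and 1129 reads. Npm3 had 131, 17 and 90 reads, far fewer than Npm1, and Npm2, the oocyte member of that family, had 0, 0 and 4. For Harr against Chx the 5′ UTR:CDS log2 odds ratio was 2.86 ± 0.19 in Fbll1, 3.46 ± 0.20 in Prpf31 and 3.81 ± 0.64 in Npm3, and the CDS log2 ratio was −0.22 ± 0.10, −0.54 ± 0.12 and −0.49 ± 0.37.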

How the data were processed

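Ribosome footprints of 3 libraries (Chx, Harr and WT, grouped by the recorded treatment) were analysed from 9 tables, 1 per library and region, that the authors deposited in the format of the Plastid software. Per the file headers, reads of 25 to 100 nucleotides aligned to mm10 were counted at their 5′ end with an offset of 0, with ribosomal reads and duplicates already removed. For its ORF search, the study's methods describe a TopHat alignment to the transcriptome that kept reads with several placements and a P-site set from the 3′ end. Whether these tables rest on that alignment is not stated. The deposited counts are whole read numbers per exon segment, the deposited signal is coverage, the count per nucleotide, and the deposited RPKM is scaled by segment length and header total. Descriptions in the labels that refer to fractions of a different experiment were not used.

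Counts alone entered the computations, in Python 3.11.15 with pandas 2.3.3 and scipy 1.17.1, and RPKM was recomputed per gene. Identifiers were joined to GENCODE M21 (99.1% matched with version), and the longest transcript per gene was used. UTR:CDS and position values are log2 odds ratios with 0.5 added to each count. A gene was past the fold at 2-fold or more with a 95% counting interval excluding no difference, on at least 10 reads per region in the pair (100 CDS reads in the 3 libraries for the CDS level). The statistics were tested on simulated data. The 10 genes were named in full, and of each related list the 2 highest and 2 lowest for each measure, Harr against Chx. Genes that passed the minimum of a printed count only with their Harr reads were named as well. The genes and lists were chosen with earlier results of these data known. Words shared with other genes came from annotated transcripts, since no genome sequence was used here. Amplified reads need not be independent molecules, so that only counting error is covered by intervals and by the floor of 3 counts.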

Additional observations from a re-analysis of the deposited data

How the results depend on the processing

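No paired analysis was possible because each treatment has 1 library, and for the same reason no library could be left out. Alternatives covered the pseudocount, the read minimum, the transcript, the scaling, overlapping genes, shared words and the first coding segment. With CDS levels per 1000000 reads of the header total, which takes the median of all genes to −0.60 for Harr against Chx and −0.51 for Harr against WT, the median over the 10 genes was −0.55 and −0.68, with 0 higher and 3 lower past the fold against Chx and 4 lower against WT (31.2% and 29% of all genes were lower), and Fbl turned to −0.21 and −0.26. Without the first coding segment the CDS median was −0.35 against Chx and −0.51 against WT, with 3 lower in each (20.8% and 22% of all genes) and Npm1 at −1.67 and −2.05, since its Harr reads lie mostly in that segment. The same change to the 5′ UTR:CDS ratio, chosen after seeing the data, gave a median of 4.54 for Harr against WT. Leaving out coding segments that share words leaves 7 genes (Fbl, Npm1 and Nop10 have none left). Of these, 2 (Ncl and Nolc1) were higher and 1 (Nop56) was lower in the CDS against Chx, and 1 (Ncl) was higher and 0 lower against WT. The share over all genes was not computed in this setting. The 5′ UTR:CDS median for Harr against WT was then 2.75. With at least 50 reads per region, 3′ UTR:CDS counts were 3 of 3 for Harr against Chx and 4 of 4 for Harr against WT, and 0 with a value of 0.0415 over 1 gene for Chx against WT, where a pseudocount of 5 left 1 lower. The share of all genes was not computed at this minimum. At the main minimum it was 86.5% for Harr against Chx and 79.8% for Harr against WT, so these counts show no trait of the genes. Except for what is named here, medians and counts stayed within the counting error or within 1.5 times of the main count under these alternatives, 107 values in all. For single genes 367 values were unchanged by this measure, 41 moved in size and 4 turned in direction, namely Fbl under the header totals, a shift common to all genes, and Npm1 without its first segment, each against Chx and against WT. The 4 do not include every change of sign in values whose interval took in 0. Examples in the CDS level against Chx are Gar1 under the header totals (0.02 to −0.53) and Dkc1 without shared words (−0.44 to 0.02). Dkc1 rests on 40 CDS reads in Harr, and 3′ UTR values on 0 to 91 reads per gene and library.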
